A study of Rattus norvegicus with 60 samples.

Results

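The genes described here encode the lysosome's proton pump, a set of its digestive enzymes, its membrane proteins and the transcription factor that switches many of them on. They are 33 genes, found by their symbols among the 30045 rows of a table of RNA-seq counts from rat lung, and all 33 passed the filter on low counts that kept 15995 genes. They comprise 5 subunits of the membrane-embedded V0 sector of the vacuolar proton pump (V-ATPase), 8 subunits of its cytosolic V1 sector and 2 accessory proteins of the pump. They further comprise 6 cathepsins, 6 genes for glycosidases, acid lipase and saposins, 5 genes for membrane and lipid transport proteins, and Tfeb. Exposed rats had breathed multi-walled carbon nanotubes (MWCNT), a fibrous engineered material, in whole-body chambers for 6 hours on each of 3 days, and control rats had breathed air in the same way. All were male Fischer 344 rats bought at 3 months of age and housed 3 to a cage, and a piece of lung was taken 1 day after the last exposure. There were 5 runs, at cumulative doses of 11.25, 22.5, 45, 90 and 180 mg/m3, each with 6 exposed rats and 6 air rats of its own, so that dose and run cannot be told apart. Libraries that the labels mark as outliers were left out, which leaves 53 of 60. The runs at 11.25, 22.5, 45, 90 and 180 mg/m3 then had 5, 6, 6, 4 and 5 exposed rats against 6, 6, 3, 6 and 6 air rats.

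Lysosomes break down what a cell takes in or discards. The V-ATPase uses ATP in its V1 sector to turn a ring in its V0 sector that carries protons into the lumen, and the acid pH that results lets the hydrolases work. In the lung, alveolar macrophages depend on lysosomes to handle inhaled particles that they have engulfed. Alveolar type 2 (AT2) cells use lysosome-related lamellar bodies to make and recycle surfactant. TFEB binds an E-box-type sequence called CLEAR in the promoters of many lysosome genes when lysosomes are stressed or nutrients are short.

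Total counts ran from 8099154 to 16176867 with a median of 11221335 in the 53 libraries, and a member had at least 272 counts in each of them. The markers Sftpc, Scgb1a1 and Ager were at 7986, 3139 and 2092 counts per 1000000 counts (CPM) or more, and liver markers took 0.0188 to 0.0485% of counts, in all 53. In the 22.5 mg/m3 run, MWCNT replicate 5 and air replicate 2 stood furthest from their own groups, with median chi-square values per degree of freedom of 34.8 and 27.1 against the other libraries of the group. Without both, Ctsz was no longer called in that run.

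At the highest dose, 8 of the 33 genes rose and 0 fell. These were the cathepsins Ctsz, Ctsh and Ctsb, the cholesterol-binding protein Npc2, the pump subunits Atp6v1b2 and Atp6v0a1, and the glycosidases Gla and Glb1, and their increases ran from 13.7% to 45.6%. The other 25 genes, among them Lamp1, Lamp2, Ctsd, Lipa and 11 of the 13 V0 and V1 subunits, did not pass the test, though 4 of them (Atp6v1a, Atp6v1h, Atp6ap2 and Tfeb) had an unadjusted p under 0.05. At 90 and at 22.5 mg/m3 only Ctsz passed it, and at 45 and 11.25 mg/m3 no gene of the set did. The test was edgeR's quasi-likelihood F-test with Benjamini-Hochberg adjustment over all 15995 genes, and a gene was called at an adjusted p under 0.05. The 8 called higher at 180 mg/m3 are 24.2% of the set, where 12% of all genes tested were called higher, 10.9% lower and 22.9% in either direction in that run. The median log2 fold change was 0.09 over the 33 genes and -0.01 over all genes tested.

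**Figure D1:**
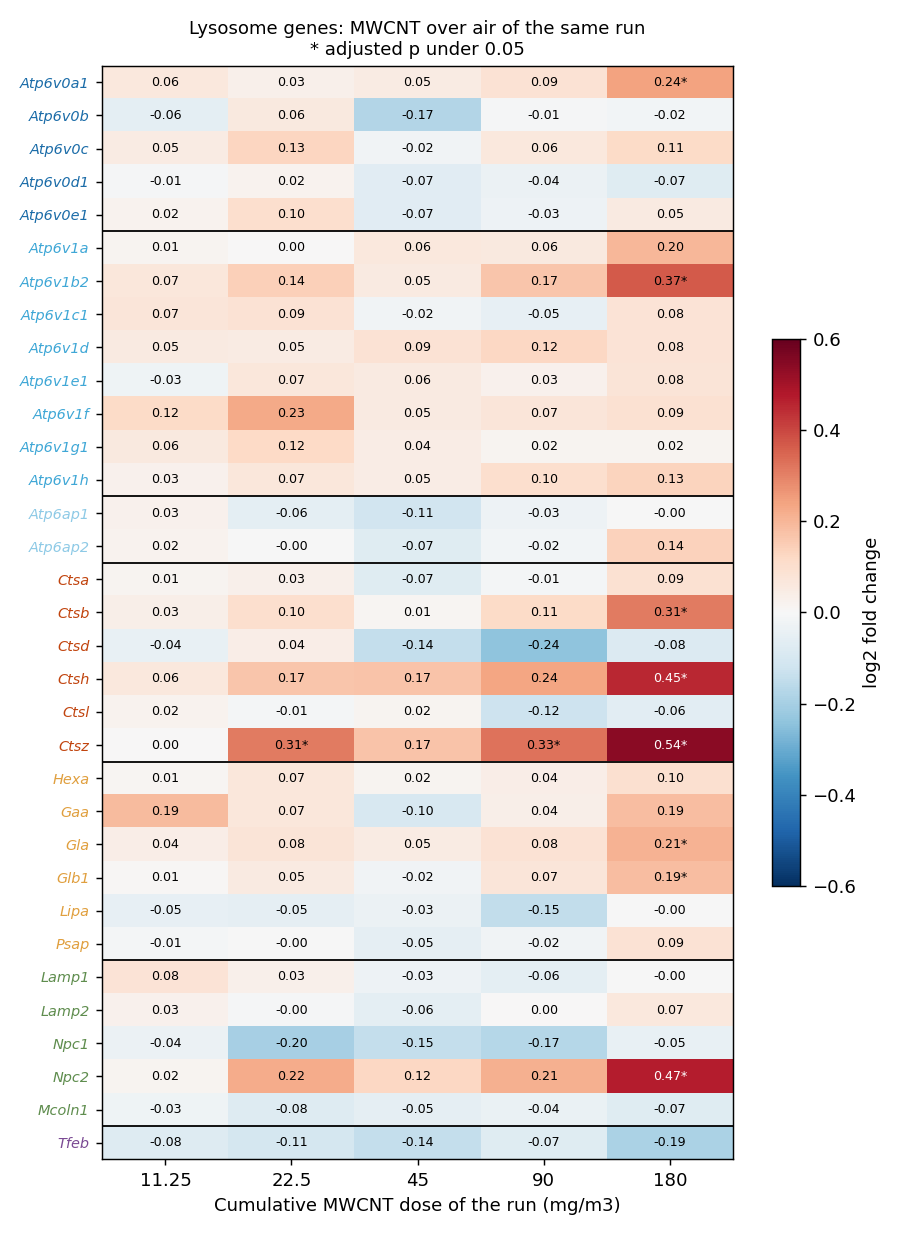
Heat map of the log2 fold change of MWCNT over air of the same run for each of the 33 genes (rows, grouped from top to bottom as V0, V1, accessory, cathepsins, glycosidases with lipase and saposins, membrane and lipid transport, and Tfeb) at the 5 doses in mg/m3 (columns, low to high). Red is higher in MWCNT rats, blue is lower, and an asterisk marks an adjusted p under 0.05: 8 cells at 180 mg/m3, and Ctsz alone at 90 and 22.5 mg/m3.

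The promoters of these genes are shown for a few members because the core of the CLEAR sequence, CACGTG, can be read in some and not in others. RefSeq promoter windows of 300 bases on build GRCr8 were at hand for 27 of the 33 genes, and for none of Atp6v1b2, Atp6v1c1, Atp6v1h, Ctsb, Hexa and Psap. The windows were used as RefSeq places them. Whether each covers the promoter used in lung was not checked, and that of Atp6v0b may lie inside the gene. The motif CACGTG, which reads the same on both strands, lay in 7 of the 27 windows (25.9%), against 6.42% of 33469 RefSeq rat promoters and 8.5% of the 12395 promoters of genes tested. The longer TCACGTG, searched on both strands and always containing CACGTG, lay in the same number of windows, 7 of 27, against 3.2% of all promoters and 4.92% of those of genes tested. The full CLEAR palindrome, of 10 bases, lay in 0 of 27, against 0.233% of all promoters and 0.444% of those of genes tested. In these windows, written 5' to 3' along the gene, capitals mark CACGTG; the first 4 hold it, up to 5 times in Lamp1, and the last 2, from the 2 genes with the largest increases, do not.
Lamp1 (chr16:83075014-83075313, minus strand): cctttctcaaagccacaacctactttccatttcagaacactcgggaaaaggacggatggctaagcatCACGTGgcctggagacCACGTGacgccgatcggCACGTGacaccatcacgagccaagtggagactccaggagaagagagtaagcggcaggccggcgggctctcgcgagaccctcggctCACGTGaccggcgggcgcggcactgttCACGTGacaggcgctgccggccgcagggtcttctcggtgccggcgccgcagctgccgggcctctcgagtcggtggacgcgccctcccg
Ctsd (chr1:206968772-206969071, minus strand): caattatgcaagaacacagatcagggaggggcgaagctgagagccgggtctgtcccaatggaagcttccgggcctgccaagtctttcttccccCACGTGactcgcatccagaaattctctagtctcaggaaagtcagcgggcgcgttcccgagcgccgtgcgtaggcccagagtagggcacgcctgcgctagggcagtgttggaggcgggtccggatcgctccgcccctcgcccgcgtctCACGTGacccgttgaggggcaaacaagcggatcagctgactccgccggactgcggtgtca
Mcoln1 (chr12:6358008-6358307, plus strand): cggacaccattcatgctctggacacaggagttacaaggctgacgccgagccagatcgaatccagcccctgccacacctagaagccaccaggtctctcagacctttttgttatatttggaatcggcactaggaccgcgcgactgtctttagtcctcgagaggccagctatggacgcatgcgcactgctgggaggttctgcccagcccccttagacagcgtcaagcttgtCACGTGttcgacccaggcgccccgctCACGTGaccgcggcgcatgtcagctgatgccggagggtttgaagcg
Glb1 (chr8:122963468-122963767, plus strand): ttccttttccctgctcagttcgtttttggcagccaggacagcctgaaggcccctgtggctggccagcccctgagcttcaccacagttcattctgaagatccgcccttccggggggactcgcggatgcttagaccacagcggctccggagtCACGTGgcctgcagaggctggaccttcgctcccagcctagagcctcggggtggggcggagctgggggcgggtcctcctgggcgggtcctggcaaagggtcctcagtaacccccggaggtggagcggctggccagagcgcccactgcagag
Ctsz (chr3:183653798-183654097, minus strand): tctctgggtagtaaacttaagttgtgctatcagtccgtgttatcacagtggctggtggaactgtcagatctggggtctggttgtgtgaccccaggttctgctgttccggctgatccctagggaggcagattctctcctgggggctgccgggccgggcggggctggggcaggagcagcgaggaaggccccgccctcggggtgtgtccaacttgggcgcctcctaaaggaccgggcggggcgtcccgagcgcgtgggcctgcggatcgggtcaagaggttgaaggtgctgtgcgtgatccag
Npc2 (chr6:110149196-110149495, minus strand): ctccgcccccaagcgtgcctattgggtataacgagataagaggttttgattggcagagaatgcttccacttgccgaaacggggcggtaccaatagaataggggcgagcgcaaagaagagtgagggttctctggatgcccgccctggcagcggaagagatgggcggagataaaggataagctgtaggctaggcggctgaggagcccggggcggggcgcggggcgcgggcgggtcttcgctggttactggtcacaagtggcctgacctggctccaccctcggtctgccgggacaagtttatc
Of the 7 genes with CACGTG in the window (Atp6v0d1, Atp6v0e1, Ctsd, Gaa, Glb1, Lamp1 and Mcoln1), Glb1 was the one called higher at 180 mg/m3, and the median log2 fold change of the 7 was -0.00. Of the 20 with a window and no CACGTG, 5 were called higher and the median was 0.09. Ctsb and Atp6v1b2, also called higher, had no window and are in neither group. A match or its absence in these letters describes the window and says nothing of whether a factor binds there.

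The V0 sector sits in the membrane, and 1 of its 5 genes rose at 180 mg/m3. Atp6v0a1 encodes an isoform of the large a subunit that forms the proton channels. It had 159.3, 172.6, 178.4, 174.4 and 160.4 CPM in the 5 MWCNT rats, and 131.4, 141.2 and 155.5 CPM as the lowest, median and highest of the 6 air rats. Every MWCNT rat was above every air rat. Its log2 fold change was 0.24 ± 0.06 (SE; adjusted p = 0.00108 by edgeR's quasi-likelihood test), an increase of 18.3%. The other 4, Atp6v0b and Atp6v0c of the rotating proteolipid ring, Atp6v0d1, which couples the ring to the central stalk, and the small subunit Atp6v0e1, had log2 fold changes from -0.07 to 0.11 and were not called. The 95% intervals of these 4 lay between -0.25 and 0.26 on the log2 scale.

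The V1 sector holds the ATP-splitting hexamer, and its B subunit gene Atp6v1b2 was the 1 of 8 that rose. Atp6v1b2 had 154.4, 143.3, 160.4, 149.7 and 138.9 CPM in MWCNT rats at 180 mg/m3, against 110.7, 113.8 and 128.2 CPM as the lowest, median and highest of air rats. The 2 groups did not overlap, and the lowest MWCNT rat stood above the highest air rat. The log2 fold change was 0.37 ± 0.07 (SE; adjusted p = 5.61e-05, edgeR's quasi-likelihood test), an increase of 29.2%. Its partner in the hexamer, the catalytic A subunit gene Atp6v1a, averaged 158.5 ± 17.2 CPM in MWCNT rats and 138.3 ± 13.1 CPM in air rats (SD, n = 5 and 6), with an edgeR adjusted p of 0.0624. Without replicate 6 of the air rats it would have been called, with an edgeR adjusted p of 0.0212. The rotor genes Atp6v1d and Atp6v1f, the peripheral stalk genes Atp6v1e1, Atp6v1g1 and Atp6v1c1, and Atp6v1h, a regulator of the sector, had log2 fold changes from 0.02 to 0.13 and were not called. All 8 V1 genes had a positive fold change at 180 mg/m3.

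Neither accessory gene passed the test at 180 mg/m3. Atp6ap1, which takes part in assembly of the pump, averaged 216.8 ± 9.83 CPM in MWCNT rats and 217.4 ± 9.37 CPM in air rats (SD, n = 5 and 6), and its 95% interval on the log2 scale was -0.09 to 0.08. Atp6ap2, also known as the prorenin receptor, averaged 79.8 ± 4.75 CPM in MWCNT rats and 72.4 ± 2.63 CPM in air rats, with an edgeR adjusted p of 0.112. In 4 of the 5 MWCNT rats Atp6ap2 was above all air rats.

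The cathepsins, the lysosome's proteases, gave 3 of the 8 increases. Ctsz (cathepsin Z, also called X) is a cysteine carboxypeptidase known from monocytes and macrophages. At 180 mg/m3 it had 191.5, 164.7, 175.6, 173.1 and 156.6 CPM in MWCNT rats, against 101.2 to 141.4 CPM in the 6 air rats, whose mean was 118.3 ± 15.4 CPM (SD). All 5 MWCNT rats were above all 6 air rats. Its log2 fold change was 0.54 ± 0.10 (SE; adjusted p = 7.23e-05, edgeR's quasi-likelihood test), an increase of 45.6%. It was the largest fold change of the 33, and its rank among the 15995 genes tested was 1099.

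Ctsh (cathepsin H) is an aminopeptidase that trims surfactant protein precursors in AT2 cells. It had 1065, 941.7, 1054, 1043 and 937.6 CPM in MWCNT rats at 180 mg/m3, against 654.0, 699.2 and 929.0 CPM as the lowest, median and highest of air rats. The groups did not overlap, but 1 air rat, replicate 6, came close to the lowest MWCNT rat. The log2 fold change was 0.45 ± 0.10 (SE; adjusted p = 0.000296, edgeR's quasi-likelihood test), an increase of 36.6%. Ctsb (cathepsin B), a cysteine protease that can leak from damaged lysosomes, had 1254, 1110, 1152, 1171 and 1079 CPM in MWCNT rats, against 842.6, 919.0 and 1055 CPM as the lowest, median and highest of air rats. Again no air rat reached the lowest MWCNT rat. Its log2 fold change was 0.31 ± 0.07 (SE; adjusted p = 0.000324, edgeR's quasi-likelihood test).

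The other 3 cathepsins were not called. Ctsd (cathepsin D), the main aspartic protease, averaged 1352 ± 95.4 CPM in MWCNT rats and 1430 ± 358 CPM in air rats at 180 mg/m3 (SD, n = 5 and 6). Its air rats ran from 1087 to 2110 CPM, with replicate 6 the highest, and enclosed all 5 MWCNT rats. Its log2 fold change was -0.08 ± 0.14 and became 0.06 without that air rat, in both cases uncalled. Ctsl (cathepsin L) averaged 334.5 ± 25.4 CPM in MWCNT rats and 349.6 ± 16.6 CPM in air rats. Ctsa, a carboxypeptidase that protects other lysosomal enzymes, averaged 391.1 ± 18.5 CPM in MWCNT rats and 367.3 ± 32.95 CPM in air rats.

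**Figure D2:**
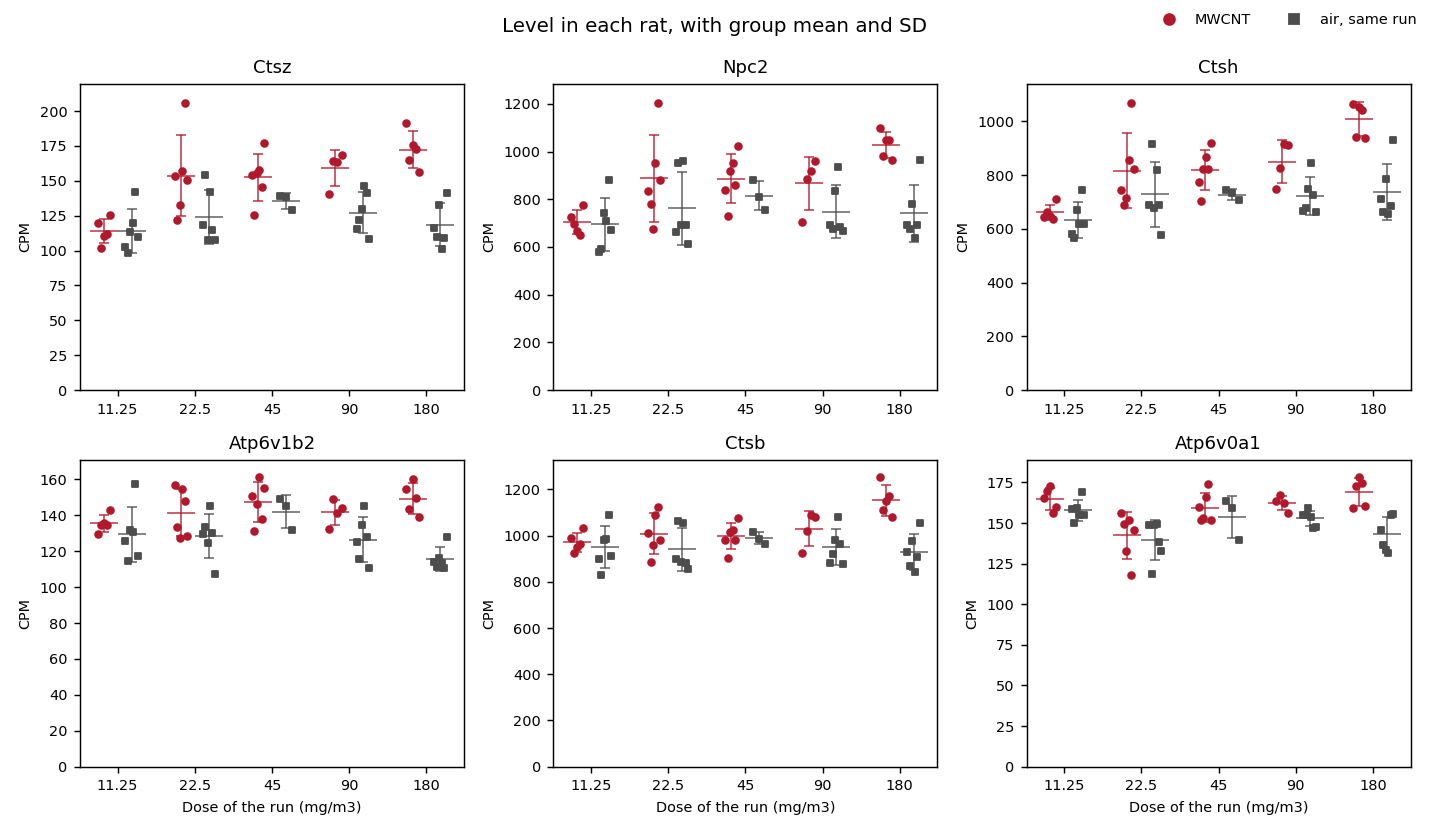
CPM in each rat (points) with the group mean and SD (bars) for the 6 genes with the largest called increases at 180 mg/m3, by dose of the run in mg/m3, MWCNT rats left of air rats of the same run. At 180 mg/m3 the groups of all 6 genes are apart, and at lower doses they overlap.

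Among the glycosidases, Gla and Glb1 rose. Gla (alpha-galactosidase A) removes terminal galactose from globo-type glycolipids. It had 37.5, 35.1, 37.6, 37.98 and 34.9 CPM in MWCNT rats at 180 mg/m3, against 29.3, 32 and 34.1 CPM as the lowest, median and highest of air rats. The groups did not overlap, by a narrow margin. The log2 fold change was 0.21 ± 0.06 (SE; adjusted p = 0.00632, edgeR's quasi-likelihood test).

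Glb1 (beta-galactosidase, the enzyme behind the senescence stain) had 74.7, 65.3, 67.2, 69.2 and 68.9 CPM in MWCNT rats, against 53.7, 62.2 and 68.5 CPM as the lowest, median and highest of air rats. The groups overlapped, with 3 of 5 MWCNT rats above all air rats. Its log2 fold change was 0.19 ± 0.06 (SE; adjusted p = 0.0121, edgeR's quasi-likelihood test). This call was lost without replicate 2 of the air rats (adjusted p = 0.0504) or replicate 2 of the MWCNT rats (0.0610).

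Hexa, the alpha chain of beta-hexosaminidase A, and Gaa, which digests glycogen, were not called at 180 mg/m3. Hexa averaged 154.2 ± 10.3 CPM in MWCNT rats and 144.1 ± 19.1 CPM in air rats. Gaa averaged 71.8 ± 2.92 CPM in MWCNT rats and 63.2 ± 17.2 CPM in air rats, where single rats ran from 34.9 to 88.6 CPM. Without replicate 6, the highest of those air rats, Gaa had a log2 fold change of 0.30 and an edgeR adjusted p of 0.0191. Without replicate 2, the lowest of them, it had 0.06 and 0.677. Lipa, the acid lipase that frees cholesterol from its esters, averaged 204.2 CPM in both groups (SD 16.4 in MWCNT rats and 31.5 in air rats). Psap, precursor of the saposins that help glycosidases reach lipids, averaged 1455 ± 79.8 CPM in MWCNT rats and 1371 ± 105 CPM in air rats, and its 95% interval on the log2 scale was -0.03 to 0.20.

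Of the Niemann-Pick type C genes, Npc2 rose and Npc1 did not pass the test at 180 mg/m3. Npc2 is the soluble protein that picks up cholesterol in the lumen and hands it to Npc1 in the membrane. Npc2 had 1097, 981.8, 1047, 1047 and 964.1 CPM in MWCNT rats at 180 mg/m3, against 637.5, 692.2 and 962.4 CPM as the lowest, median and highest of air rats. The groups were apart by a narrow margin, since air replicate 6 stood just under the lowest MWCNT rat and the next air rat had 780.1 CPM. The log2 fold change was 0.47 ± 0.12 (SE; adjusted p = 0.00279, edgeR's quasi-likelihood test), an increase of 38.8%. Npc1 averaged 116.5 ± 6.62 CPM in MWCNT rats and 120.4 ± 20.4 CPM in air rats (SD, n = 5 and 6), with an edgeR adjusted p of 0.799. Whether the 2 genes' effects differ was not tested.

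The remaining membrane genes were not called. Lamp1, a heavily glycosylated protein that lines the lysosome membrane, averaged 851.3 ± 29.6 CPM in MWCNT rats and 852.8 ± 52.2 CPM in air rats at 180 mg/m3, with a 95% interval of -0.10 to 0.10 on the log2 scale. Lamp2, its relative with a role in chaperone-mediated autophagy, averaged 375.5 ± 12.5 CPM in MWCNT rats and 358.8 ± 14.3 CPM in air rats, with an interval of -0.01 to 0.14. Mcoln1, the calcium channel of the lysosome membrane, averaged 33.1 ± 1.41 CPM in MWCNT rats and 34.9 ± 0.991 CPM in air rats. In 3 of the 5 MWCNT rats Mcoln1 was below all air rats, and its edgeR adjusted p was 0.407.

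Tfeb, the transcription factor, was not called at 180 mg/m3. It had 37.5, 37.02, 33.7, 35.8 and 32.5 CPM in MWCNT rats, against 35.3, 40.9 and 44.7 CPM as the lowest, median and highest of air rats. The groups overlapped, with 2 of 5 MWCNT rats below all air rats. Its log2 fold change was -0.19 ± 0.08 (SE; adjusted p = 0.0793, edgeR's quasi-likelihood test), and without air replicate 5 it was called lower, with an edgeR adjusted p of 0.0355.

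**Figure D3:**
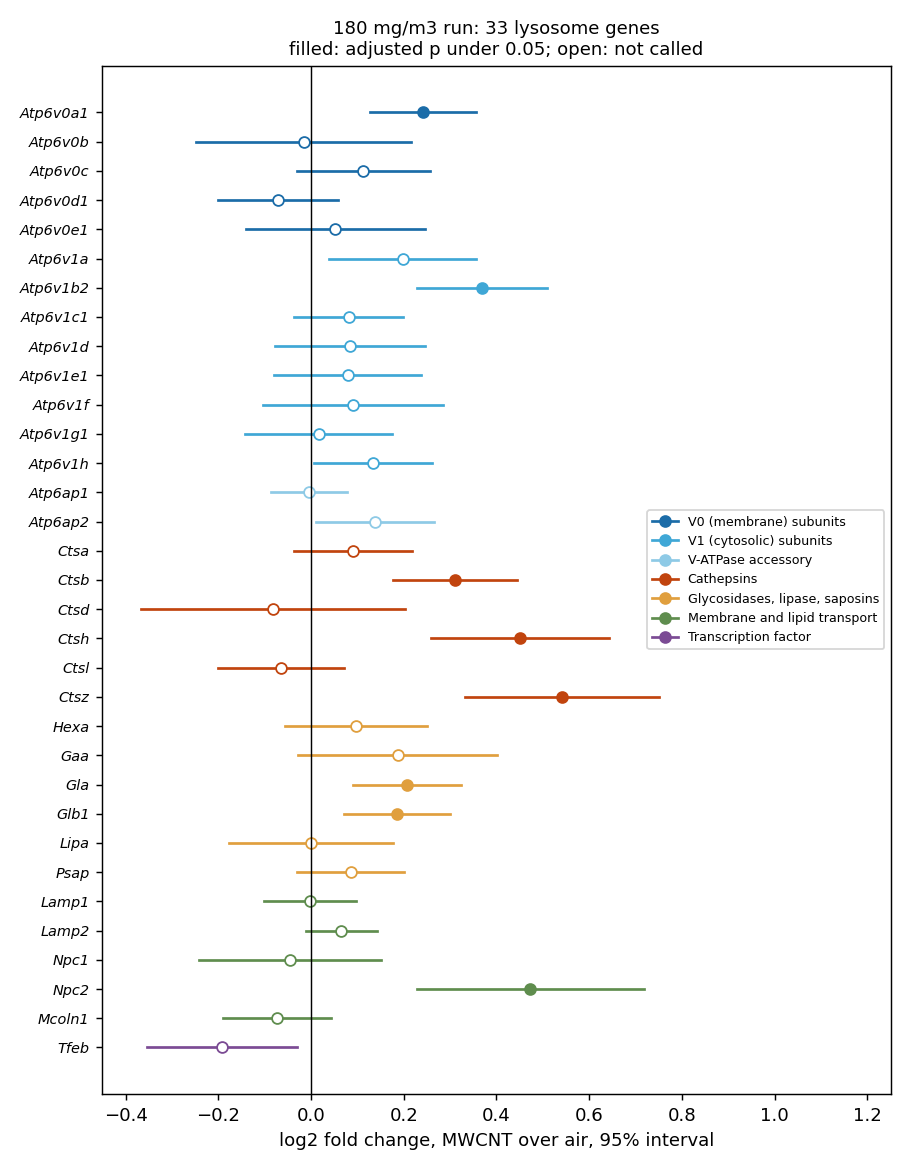
Log2 fold change of MWCNT over air in the 180 mg/m3 run with its 95% interval for each of the 33 genes, coloured by role, with filled circles for an adjusted p under 0.05. The 8 filled circles lie between 0.19 and 0.54, and the open ones between -0.19 and 0.20.

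The 25 uncalled genes were measured closely enough to bound a change. The 95% interval of each lay within a 1.5-fold change in either direction at 180 mg/m3, and the widest bounds were -0.37 and 0.40 on the log2 scale. On simulated counts for this run, with 25 genes changed at each size and direction, 68% of rises and 80% of falls by 0.32 on the log2 scale were called, as were 44% of rises and 20% of falls by 0.20. Far fewer genes were changed there than the 3660 called in the real run, which makes the adjustment stricter. These shares therefore do not give the rate of detection in the real run. In 7 of the 33 genes every MWCNT rat was above every air rat (7.32% of all genes tested had this), and in 0 every MWCNT rat was below (5.95%). The 33 genes together took a median of 1.09% of a library's counts in MWCNT rats and 0.951% in air rats of this run.

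Across the lower doses, Ctsz was the 1 member called in more than 1 run. At 11.25 mg/m3 it had 119.7, 102.1, 110.7, 112.1 and 125.4 CPM in MWCNT rats, against 97.9, 111.5 and 141.8 CPM as the lowest, median and highest of air rats. At 22.5 mg/m3 the lowest, median and highest were 121.7, 152.1 and 205.8 CPM in MWCNT rats, against 107.4, 116.4 and 153.9 CPM in air rats. At 45 mg/m3 they were 125.4, 155.0 and 176.9 CPM in MWCNT rats, against 139.0, 138.3 and 129.1 CPM in the 3 air rats. The groups overlapped at each of these doses. At 90 mg/m3 it had 140.2, 164.5, 163.7 and 168.8 CPM in MWCNT rats, against 108.6, 125.6 and 146.1 CPM as the lowest, median and highest of air rats. There 3 of the 4 MWCNT rats were above all air rats.

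The log2 fold changes of Ctsz from the lowest to the highest dose were 0.00 ± 0.11, 0.31 ± 0.10, 0.17 ± 0.12, 0.33 ± 0.11 and 0.54 ± 0.10 (SE). The edgeR adjusted p was 0.045 at 22.5 mg/m3 and 0.0445 at 90 mg/m3, just inside the threshold. Leaving out single libraries moved them between 0.00829 and 0.263 at 22.5 mg/m3 and between 0.0242 and 0.116 at 90 mg/m3. Ctsz was called higher in 3 of the 5 runs, as were 3.96% of all genes tested, and the other 32 members in fewer.

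For the set as a whole, 1 member was called higher and 0 lower at 90 mg/m3, where 6.82% of all genes were called higher and 4.28% lower. At 45 mg/m3 the counts were 0 and 0 by edgeR's test against 3.32% and 2.09% of all genes (5.41% in either direction), and 1 member, Atp6ap1, had an unadjusted p under 0.05. At 22.5 mg/m3 they were 1 and 0 against 5.18% and 1.62% (6.8% in either direction). At 11.25 mg/m3 they were 0 and 0 against 0.025% and 0%, with 0 members at an unadjusted p under 0.05. With 33 members, 1 call is 3.03% of the set. Counts of 0 or 1 are therefore too coarse to be told apart from the background shares at 22.5, 45 and 90 mg/m3.

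At 45 mg/m3, 3 members had every MWCNT rat below every air rat, as did 6.29% of all genes tested, and 0 had every MWCNT rat above (7.53%); none of the 3 was called. For Atp6ap1 the lowest, median and highest of the 6 MWCNT rats were 202.7, 216.6 and 225.6 CPM, against 228.1, 238.8 and 235.6 CPM in the 3 air rats, with an edgeR adjusted p of 0.164. Atp6v0b had 58.9 to 70.6 CPM in MWCNT rats, against 71.6 to 77.8 CPM in air rats. In the runs at 11.25 and 22.5 mg/m3 0 members were apart upward, against 0.444% and 1.96% of all genes, and 0 were apart downward, against 0.256% and 0.375%. At 90 mg/m3 0 members were apart upward or downward, against 6.69% and 4.82% of all genes. At 45 mg/m3 Lamp2 had 351.1 to 389.8 CPM in MWCNT rats, against 390.5 to 392.0 CPM in air rats.

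A test of the mean of the 5 run effects called 9 members higher and 2 lower, where 16.5% of all genes tested were called higher and 15.7% lower. Ctsz had the largest mean effect, 0.27 ± 0.05 on the log2 scale (SE; adjusted p = 1.4e-05, edgeR's quasi-likelihood test). Ctsh followed with 0.22 ± 0.04, Npc2 with 0.21 ± 0.06, Atp6v1b2 with 0.16 ± 0.03, Ctsb with 0.11 ± 0.03, Atp6v0a1 with 0.09 ± 0.03 and Gla with 0.09 ± 0.03. Atp6v1f (0.11 ± 0.04, adjusted p = 0.0483) and Atp6v1h (0.08 ± 0.03, adjusted p = 0.0415) were called here by edgeR though in no single run, but 41 and 32 of the 61 alternative settings ended these calls.

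The 2 genes lower in the mean effect were Tfeb and Npc1. Tfeb had a mean log2 fold change of -0.12 ± 0.04 (SE; adjusted p = 0.01, edgeR's quasi-likelihood test), with negative values in all 5 runs. Npc1 had -0.12 ± 0.04 (adjusted p = 0.0357, edgeR), also negative in all 5 runs, and it lost the call without any 1 of 6 single libraries (air_022 replicate 4, air_045 replicates 1 and 2, air_090 replicate 3, MWCNT_090 replicates 1 and 4; highest adjusted p 0.0826). Lipa and Mcoln1 were likewise negative in all 5 runs without being called. In all, 13 members were positive in every run (14.5% of all genes tested were), 4 were negative in every run (12.2%) and 16 were mixed. No run called 25 of the 33 members, and no run called 73.3% of all genes tested.

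With log2 dose as a straight-line term, 1 member's effect rose and 0 fell, where 5.58% of all genes tested rose and 5.07% fell with dose. Ctsz gained 0.11 ± 0.03 on the log2 scale per doubling of dose (SE; adjusted p = 0.0238, edgeR's quasi-likelihood test). The next smallest edgeR adjusted p-values were 0.058 for Atp6v1b2, 0.0626 for Ctsh and 0.0765 for Ctsb. A test for any difference of the effect among the 5 runs called 0 members by edgeR (3 at an unadjusted p under 0.05), where it called 4.92% of all genes. The smallest adjusted p was 0.138, for Ctsz. Both counts depend on the method: the effect rose with dose in 3 members on a linear dose scale, 4 with DESeq2 and 6 with limma voom, and in 1 to 4 when a library was left out (4 without MWCNT_022 replicate 5 or MWCNT_090 replicate 1). It differed among runs in 4 members with voom. The share of all genes called by these alternatives was not counted.

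The air rats of the 5 runs differed among themselves in 3 members, Atp6v0b, Atp6ap1 and Atp6ap2, where 7.11% of all genes tested differed by the same edgeR test. Atp6ap2 averaged 80.3, 85.1, 89.6, 78.3 and 72.4 CPM in the air rats of the 11.25, 22.5, 45, 90 and 180 mg/m3 runs (edgeR adjusted p = 0.0162). Atp6v0b averaged 51.1, 69.1, 73.8, 63.8 and 57.6 CPM in the same order (0.0162), and Atp6ap1 averaged 204.8, 224.2, 234.2, 222.5 and 217.4 CPM (0.029). Each was highest in the air rats of the 45 mg/m3 run.

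Some other genes of the lysosome changed by more than any of the 33, in both directions. Of 9 further V-ATPase subunits tested at 180 mg/m3, 1 rose and 1 fell, where 12% of all genes tested were called higher and 10.9% lower. The median log2 fold change of the 9 was 0.01, against -0.01 over all genes tested. Atp6v0d2, the d-subunit isoform known from osteoclasts and macrophages, averaged 21.6 ± 2.99 CPM in MWCNT rats and 7.08 ± 4.18 CPM in air rats (SD, n = 5 and 6), a log2 fold change of 1.61 ± 0.24 (SE; adjusted p = 1.18e-06, edgeR). Its ubiquitous counterpart Atp6v0d1 had a log2 fold change of -0.07 ± 0.06 in the same run. Atp6v1c2, an isoform of the C subunit known from lung and kidney, fell by 0.35 on the log2 scale (SE 0.07).

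Of 11 other cathepsins and proteases, 4 rose and 2 fell at 180 mg/m3, with a median of 0.14, where 12% of all genes tested rose and 10.9% fell. Ctsk, a collagen-degrading cathepsin, averaged 50.3 ± 6.07 CPM in MWCNT rats and 17.1 ± 6.18 CPM in air rats, a log2 fold change of 1.56 ± 0.23 (SE; adjusted p = 1.21e-06, edgeR). Ctse rose by 0.59, Ctsc by 0.36 and Lgmn (legumain, which activates other cathepsins) by 0.33 on the log2 scale, and Cpq fell by 0.31. Atp6v0d2 and Ctsk were also called higher at 22.5 and 90 mg/m3. Both stand on the list of osteoclast markers too, of which 3 of 4 tested rose, the third being Oscar (0.37 on the log2 scale, edgeR adjusted p = 0.0229). Acp5 of that list was not called, and Calcr and Dcstamp were at 0 in every library of the 180 mg/m3 run.

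Of 31 genes on a list of other hydrolases, which also holds the activator protein Gm2a and the glycoprotein Gpnmb, 8 rose and 4 fell at 180 mg/m3, with a median of 0.01. Of all genes tested, 12% rose and 10.9% fell in that run. Gm2a and Gpnmb, neither of them a hydrolase, are among the 8. Pla2g15, the lysosomal phospholipase that degrades surfactant phospholipids in alveolar macrophages, averaged 75.9 ± 5.44 CPM in MWCNT rats and 124.9 ± 13.1 CPM in air rats, and fell by 0.72 on the log2 scale (SE 0.10; adjusted p = 6.04e-08, edgeR). It was called lower at 22.5, 45, 90 and 180 mg/m3. The sulfatase Galns rose by 0.61, Gpnmb by 0.45 and the galactosylceramidase Galc by 0.38 on the log2 scale, and the acid amidase Naaa fell by 0.45. Of 22 other lysosome membrane genes 3 rose and 4 fell (median 0.01), against the same 12% and 10.9% of all genes tested. Cd68, a macrophage marker, was 0.67 higher and Lamp3, a lamellar body protein of AT2 cells, 0.46 higher. The nucleoside transporter Slc29a3 was 0.23 higher, while Laptm4b fell by 0.25 and the channel Tpcn1 by 0.23 on the log2 scale.

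Genes that sort enzymes, sense lysosome stress or run autophagy are read against the 12% of all genes called higher and 10.9% called lower at 180 mg/m3. Of 12 sorting genes (median -0.04) Grn (progranulin) rose by 0.30 on the log2 scale and Sort1, its receptor, fell by 0.22. Of 16 genes of the TFEB family and the mTORC1 pathway, which holds TFEB in the cytoplasm, 0 were called by edgeR (4 at an unadjusted p under 0.05; median -0.02), and Tfe3 had 0.09 ± 0.05. Of 19 autophagy genes 0 rose and 3 fell (Atg9a, Wipi1 and Uvrag, by 0.12 to 0.21), with a median of -0.11. Of 12 genes of the response to lysosome damage (median 0.09) 3 rose, Lgals3 by 0.73, Nlrp3 by 0.48 and Lgals8 by 0.21; galectin-3, the product of Lgals3, gathers on ruptured lysosomes and is also made in quantity by macrophages.

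**Figure D4:**
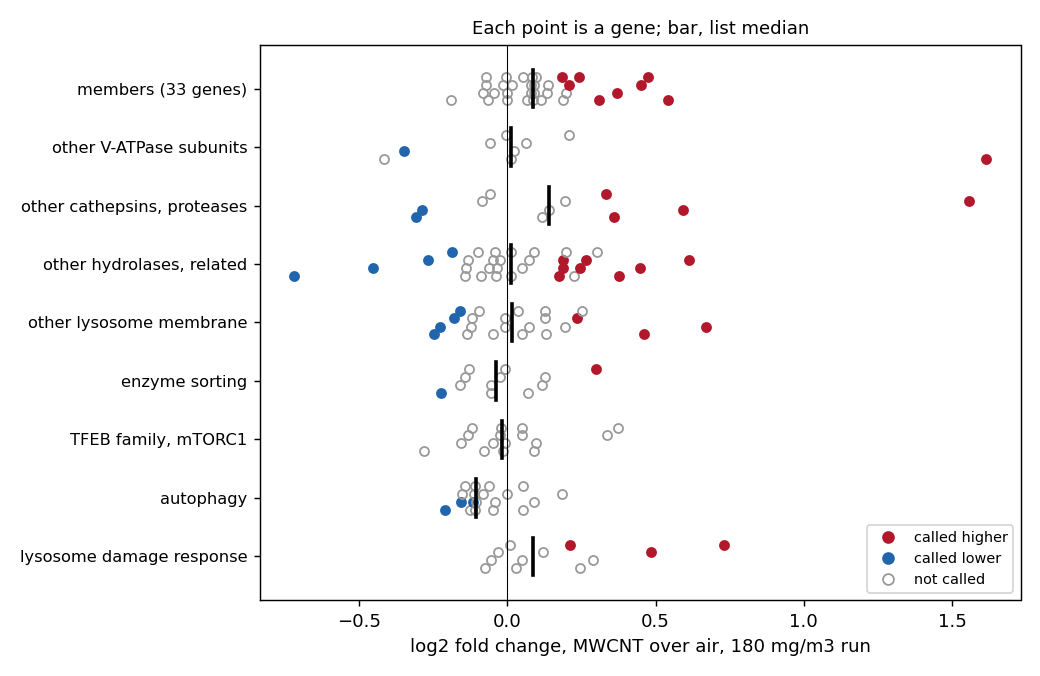
Log2 fold change of MWCNT over air at 180 mg/m3 for each tested gene of the set of 33 and of 8 further lists, with the list median as a black bar, red for genes called higher, blue for genes called lower and grey for uncalled genes. The 33 genes have no blue point, while the other V-ATPase, protease, hydrolase (with Gm2a and Gpnmb) and lysosome membrane lists have both colours.

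Cell type markers moved in the same run, and in bulk tissue fewer cells of a type and less RNA per cell cannot be told apart. The counts below stand beside 12% of all genes tested called higher and 10.9% called lower at 180 mg/m3. Of 11 AT2 markers 5 rose and 0 fell, and their summed level was 31200 to 33340 CPM in MWCNT rats and 23780 to 31210 CPM in air rats. Of 12 monocyte and macrophage markers 7 rose and 0 fell (643.8 to 788.4 CPM in MWCNT rats, 547.0 to 618.2 CPM in air rats). Of 9 alveolar macrophage markers tested 1 rose and 5 fell (625.0 to 731.7 CPM summed in MWCNT rats, 745.8 to 1061 CPM in air rats, with Marco at 0 in every air rat of the run). Of 10 neutrophil markers 7 rose and 0 fell (274.3 to 364.4 CPM in MWCNT rats, 144.7 to 236.1 CPM in air rats), and of 10 endothelial markers 0 rose and 8 fell (3967 to 4337 CPM in MWCNT rats, 4646 to 5165 CPM in air rats). Of 9 dendritic cell markers 6 rose and 0 fell (264.8 to 303.8 CPM in MWCNT rats, 184.3 to 213 CPM in air rats), of 9 AT1 markers 0 rose and 4 fell, and of 6 club cell markers 0 rose and 3 fell. Of 10 markers of lipid-laden and scar macrophages 4 rose and 3 fell, and among them Spp1 rose by 4.58 and Mmp12 by 2.49 on the log2 scale. The part of these shifts in the increases of Ctsh, Npc2, Ctsz, Ctsb and the others was not tested.

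**Figure D5:**
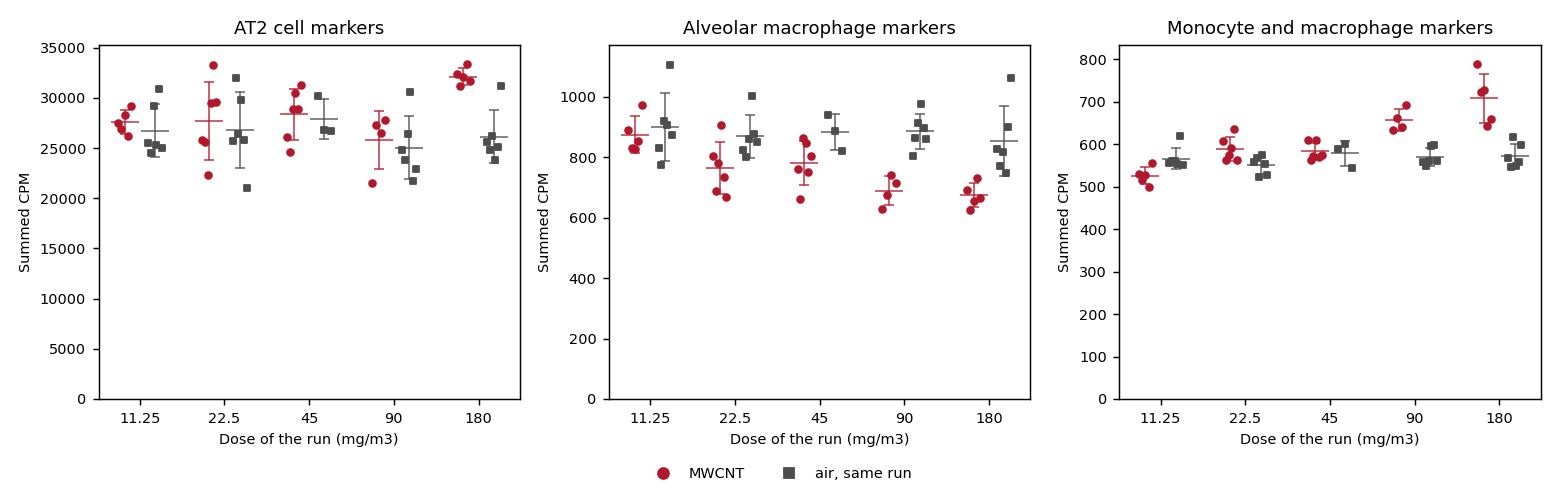
Summed CPM of the markers of AT2 cells, alveolar macrophages, and monocytes and macrophages in each rat (points) with the group mean and SD (bars), by dose of the run in mg/m3, MWCNT rats left of air rats of the same run. At 180 mg/m3 the alveolar macrophage and the monocyte and macrophage sums do not overlap between the groups, and 1 air rat (31210 CPM) reaches the AT2 sums of the MWCNT rats (31200 to 33340 CPM).

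Air replicate 6 of the 180 mg/m3 run had the highest value of its group in 22 of the 33 genes. It also had the highest AT2 sum (31210 CPM, where the other 5 had 23780 to 26200 CPM) and the highest alveolar macrophage sum (1061 CPM). Across all genes, too, this rat stood furthest from its group, with a median chi-square per degree of freedom of 9.52 against the other libraries. Without it 10 members were called higher in place of 8, with log2 fold changes of 0.59 for Ctsz, 0.56 for Npc2 and 0.52 for Ctsh. The share of all genes called without this rat was not counted. Among MWCNT rats, replicate 2 was highest in 20 genes and replicate 6 lowest in 22. How many of all genes tested were highest or lowest in these libraries was not counted, so these counts cannot be read as particular to the set. With RefSeq's annotation on GRCr8, Ctsz overlaps Nelfcd, Ctsa overlaps Neurl2 and Pltp, Ctsd overlaps Tnni2, Glb1 overlaps Tmppe, Npc1 overlaps Rmc1, Hexa overlaps Tmem202, Psap overlaps Cdh23, and Atp6v1h overlaps Rgs20. Genes with only a LOC number overlap Atp6v1b2 and Glb1, both called at 180 mg/m3, and Atp6v0d1, Atp6v0e1, Atp6v1a, Lamp1, Mcoln1 and Tfeb. A pseudogene, Aktip-ps1, also overlaps Npc1, and Atp6v0c, Atp6v1a, Atp6v1e1 and Atp6v1g1 have like-named pseudogenes. Counts of these members may be less certain, since reads shared with another gene could have been set aside or misassigned. Overlaps were found without regard to strand or exons, and their effect on the counts was not tested.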

How the data were processed

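RNA was sequenced from a piece of lung of each rat in 10 groups, MWCNT and air in each of 5 runs. The authors deposited whole-number counts per gene symbol for 60 libraries, made from a stranded mRNA kit with 12 PCR cycles per the labels' protocols. The submitters' processing notes name bcl2fastq 2.19, Trimmomatic 0.35, HISAT2 2.1.0, Cufflinks, SAMtools 1.8 and HTSeq 0.11.2; for genome build, annotation and strand setting of the counting, the sources used here give none.

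The 7 libraries labelled as outliers were left out. Genes were kept by filterByExpr (minimum count 10; 15995 of 30045 rows, 99.932% of counts), scaled by TMM and fitted in edgeR 4.0.16 (R 4.3.3) with robust quasi-likelihood over the 10 groups, whose common biological coefficient of variation was 0.107. Each exposed group was set against the air group of its own run, two-sided, with Benjamini-Hochberg adjustment over all genes tested. The slope, the mean effect and the differences among runs were contrasts of the same fit. CPM are counts per 1000000 after TMM scaling, computed from the deposited counts, with some exceptions. The levels of Sftpc, Scgb1a1 and Ager were taken per 1000000 total counts, without TMM scaling. So were the levels by which libraries labelled as outliers were compared with the analysed air libraries. The SE is the log2 fold change divided by the square root of F. Each library is a separate rat per the labels, and no replicates differed by less than sampling noise (smallest chi-square per degree of freedom 2.6). The method was tested on simulated counts. Alternatives used DESeq2 1.42.0, limma 3.58.1 voom and other library choices. Promoter sequences are RefSeq's for GRCr8.

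The members and lists were chosen with earlier results of these data known. Values per rat, or the range or mean and SD of a group, were given by a rule. It took members called in 3 or more runs and the 6 largest called changes each way at 180 mg/m3. It also took the 4 smallest adjusted p for slope and for difference among runs, and the member of each role with the smallest p for the mean effect. The 3 members with the highest mean CPM were included, as were up to 5 called genes of other lists (3 for markers). At 180 mg/m3, Ctsd, Psap and Atp6ap1 have group summaries in place of values per rat. Glb1, Npc1 and others beyond this rule were added after their values were seen.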

Additional observations from a re-analysis of the deposited data

Results flagged for a closer look

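Of 297 combinations of a member and a group of 4 or more rats, 23 held a rat far from the others of its group by Dixon's test, where chance gives about 1 in 20 groups. Genes of the same rat do not vary independently, and Dixon's test was not run on all genes. The count therefore cannot be read as particular to these genes. Air replicate 2 of the 22.5 mg/m3 run gave 8 of them, all high: Atp6v0b at 98.2, Atp6v0d1 at 232.8, Atp6v0e1 at 178.6, Atp6v1d at 88.46, Atp6v1e1 at 146.3, Atp6v1f at 61.43, Atp6v1g1 at 226.9 and Tfeb at 55.63 CPM. In the same run, MWCNT replicate 5 was far above its group for Atp6v0b at 106.1, Atp6v1d at 91.14, Gla at 41.33 and Lamp1 at 1018 CPM. MWCNT replicate 2 was far below for Mcoln1 at 28.73 CPM, and air replicate 4 far above for Ctsd at 2046 and Lipa at 266.7 CPM.

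In the 180 mg/m3 run, air replicate 6 was far above its group for Atp6v1b2 (128.2 CPM), a gene called higher in that run, and air replicate 3 for Atp6v1d (72.14 CPM). In the 11.25 mg/m3 run, MWCNT replicate 6 was far above for Atp6v0b (51.73 CPM), MWCNT replicate 3 far below for Tfeb (32.03 CPM) and air replicate 5 far above for Atp6v1e1 (108.7 CPM). In the 45 mg/m3 run MWCNT replicate 2 was far below for Lipa (186 CPM). In the 90 mg/m3 run MWCNT replicate 1 was far below for Atp6v1h (56.52 CPM) and air replicate 4 far above for Glb1 (70.24 CPM).

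The libraries labelled as outliers entered only the alternatives with 60 and 57 libraries, and 5 of the 7 held members above every analysed air library. There were 5 such members in MWCNT replicate 1 of the 180 mg/m3 run. In the 90 mg/m3 run there were 3 in MWCNT replicate 5 and 4 in MWCNT replicate 6, where liver markers took 21.5% and 22.1% of counts. In the 45 mg/m3 run there were 19 in air replicate 3, which had 5190834 counts, and 2 in air replicate 5, where liver markers took 19.2%. Members below every analysed air library numbered 27 and 23 in MWCNT replicates 5 and 6 of the 90 mg/m3 run. There were 13 in MWCNT replicate 2 of the 11.25 mg/m3 run (0 above). In the 45 mg/m3 run there were 27 in air replicate 5 and 3 in air replicate 3, where more stood above than below. These levels were not TMM-scaled, unlike those in the fits. How many of all genes tested lay outside the range of the air libraries was not counted. The counts therefore cannot be read as particular to the set.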

How the results depend on the processing

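The 8 increases at 180 mg/m3 became 3 with all 60 libraries, and ran from 7 to 10 when each library was left out in turn; Ctsz, Ctsh and Atp6v1b2 kept their calls at that dose in all 21 settings run. At 180 mg/m3, 1 member was called lower with 51 libraries, with all air rats as a single control and with limma voom (0 to 1 when leaving out a library). With all 60 libraries, MWCNT replicates 5 and 6 of the 90 mg/m3 run enter, where liver markers took 21.5% and 22.1% of counts. At 90 mg/m3 the count called higher was 21 with all 60 libraries, 0 with 57 libraries or no filter, 2 with all air rats or the run fitted alone and 3 with voom (0 to 1 leaving out a library, called lower 0 to 0). It was 0 without air replicate 1, 2, 3 or 6 or MWCNT replicate 2, 3 or 4. At 45 mg/m3, 4 were higher with all air rats and 1 lower with voom (0 to 0 and 0 to 0 leaving out a library). At 22.5 mg/m3 the count higher was 0 with 60, 57 or 51 libraries, DESeq2 size factors, no filter or the run fitted alone, and 7 with all air rats, where 1 was lower. Leaving out a library gave 0 to 4 higher there, with 0 without air replicate 1, 3, 5 or 6 or MWCNT replicate 1, 4, 5 or 6 and 4 without air replicate 2, and 0 to 1 lower. At 11.25 mg/m3 both ranges were 0 to 0. The share of all genes called in each alternative setting was not counted. The counts above and in the next paragraph therefore cannot be read as particular to the set.

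The mean effect gave 3 higher and 0 lower with 60 libraries and 1 lower with 57 (7 to 12 and 1 to 3 leaving out a library). The effect rose with dose in 0 members with 60 libraries, 3 with 57, 4 with 51, 2 with DESeq2 size factors, 3 with a stricter filter, 3 with linear dose, 6 with voom and 4 with DESeq2 (1 to 4 leaving out a library, with 4 without MWCNT_022 replicate 5 or MWCNT_090 replicate 1; falling 0 to 0). Differences among runs were called in 8 with 60 libraries, 1 with 57, 1 with 51 and 4 with voom (0 to 0 leaving out a library). Differences among air groups were called in 0, 5 and 8 with 60, 57 and 51 libraries, 14 with voom and 5 with DESeq2 (1 to 8 leaving out a library, with 1 without air_011 replicate 2 and 8 without MWCNT_022 replicate 5). With all 60 libraries the log2 fold change at 90 mg/m3 turned positive for Atp6v0d1 (0.72), Ctsa (0.61), Ctsl (1.19), Lipa (1.19), Psap (0.31), Lamp1 (0.36), Npc1 (0.88) and Mcoln1 (0.83), and the mean effect of Npc1 became 0.012. The cause of these shifts was not tested. The 57-library setting (leaving out the 3 libraries over 1% liver markers) and the 51-library setting were chosen after seeing the data. No paired analysis was possible because the replicate numbers were given in accession order and pair no rats. Changes of 0.20 on the log2 scale were called in 44% of rises and 20% of falls on counts simulated for the 180 mg/m3 run. Fewer genes were changed in that simulation than were called in the real run, so the adjustment was stricter in it.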

Other observations

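The library highest for most members of its group was looked at after the values were seen. In 8 of the 10 groups it was also the highest in summed AT2 markers, in 6 the highest in alveolar macrophage markers and in 7 the lowest in endothelial markers. MWCNT replicate 5 of the 22.5 mg/m3 run was highest in 21 members, with an AT2 sum of 33280 CPM, against 22310 to 29550 CPM in the other MWCNT rats of that run. Air replicate 4 of the 90 mg/m3 run was highest in 23, with 30580 CPM, against 21690 to 26360 CPM in the other air rats of that run. How many of all genes tested were highest in these libraries was not counted. In the 2 libraries of the 22.5 mg/m3 run that stood apart, MWCNT replicate 5 and air replicate 2, Atp6v0a1 was the lowest of its group (118.0 and 118.8 CPM) while Atp6v0b was the highest (106.1 and 98.2 CPM). The part of tissue makeup in this spread was not tested.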
